A study of Mus musculus with 2 samples.

Results

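The genes described here are 48 genes of the mesenchyme of the pancreas: genes of its fibroblasts, stellate cells and smooth muscle, and genes of the extracellular matrix those cells lay down, with the collagens left out. They are a list of names. A gene was included as measured when a non-control probe carried a RefSeq accession or a symbol, current or older, of a gene on the list. All 48 were found, with 73 probes, among 16801 named genes and 41174 non-control probes on the array.

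The study compared the pancreas of Glis3zf/zf mouse pups (called Glis3KO in the labels, and the mutant here) with that of wild-type pups at postnatal day 3. Glis3 encodes a zinc finger transcription factor, and the study concerns its place in the development of beta cells. RNA from 2 pups of each genotype was pooled, so that each genotype was represented by 1 pool. Both pools were hybridised together to 2 whole-genome Agilent 60-mer arrays, one with the mutant in Cy5 and the wild type in Cy3 and the other with the dyes reversed. The strain, sex and litters of the pups and the structure of the zf allele were not given in the sources used here.

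Pancreatic mesenchyme surrounds the epithelium from the start of organ formation and supplies signals on which the growth of acinar, duct and endocrine cells depends. After birth its descendants include stellate cells, the vitamin A storing fibroblasts that deposit matrix when activated, and the contractile cells of vessels and ducts. The matrix these cells make holds fibronectin, small leucine-rich proteoglycans, elastic fibres, matricellular proteins that modulate adhesion, and the proteases and inhibitors that turn the matrix over. Beneath epithelia and vessels lies the basement membrane, whose laminins and nidogens are made by mesenchymal, endothelial and epithelial cells alike.

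All values are log2 ratios of mutant over wild type, read from the brightest unsaturated probe of a gene, with the array carrying the mutant in Cy5 given first and the array carrying it in Cy3 second. The arrays are technical repeats of 1 pair of pools. The difference between them measures labelling and hybridisation, not the spread between animals, and no test between genotypes was possible. Rules of size were used instead. The 2-fold rule asks for a mean difference of 2-fold or more, seen with the same sign at 1.5-fold or more with each dye orientation. The 1.2-fold rule asks only that both arrays pass 1.2-fold (0.263 on the log2 scale) with the same sign. All 73 probes were well above background in both genotypes on both arrays and none was saturated.

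No member passed the 2-fold rule in either direction, where 0.23% of the 16546 detected genes were higher by it and 0.151% lower. Of the 48 genes, 10 were higher in the mutant by the 1.2-fold rule, against 1.7% of all detected genes, and 1 was lower, against 2.57%. The 10 were Tcf21, Mfap4, Des, Mmp2, Pdgfra, Ctgf, Loxl1, S100a4, Mmp11 and Timp2, and the 1 lower gene was Lama4. Among the 3928 detected genes at least as bright as the median member, 3.13% were higher by the rule and 4.12% lower. Some of the 10, such as Tcf21 and Des, were dimmer than the median member and are not in that set. The median of the 48 mean ratios was 0.14 (1.1-fold), with 0.18 where the mutant was in Cy5 and 0.09 where it was in Cy3, and the median over all detected genes was 0.0039. The differences were small for most members: 35 of the 48 means lay within 0.3 of 0, 12 were at 0.3 or above and 1 was at -0.3 or below. The shares of all detected genes at these limits were not counted.

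The dye orientation mattered at this size. The ratio was above 0 on both arrays for 28 members (32.5% of all detected genes), below 0 on both for 6 (30.5%) and changed sign with the dye for 14 (37.1%). Across the 48 genes the ratios of the arrays had a Pearson r of 0.70 and a Spearman rho of 0.63. These describe genes measured on the same pools, which are not independent, and over all detected genes r was 0.72. At the members' intensities the technical SD, taken as the root mean square distance of an array from the mean of both over genes of like brightness, was 0.072 to 0.104. The mean exceeded 2 such SDs upward for 18 members, against 7.02% of detected genes, and downward for 3, against 11.2%; these 3 were Lama4, Tnc and Fbn1.

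**Figure D1:**
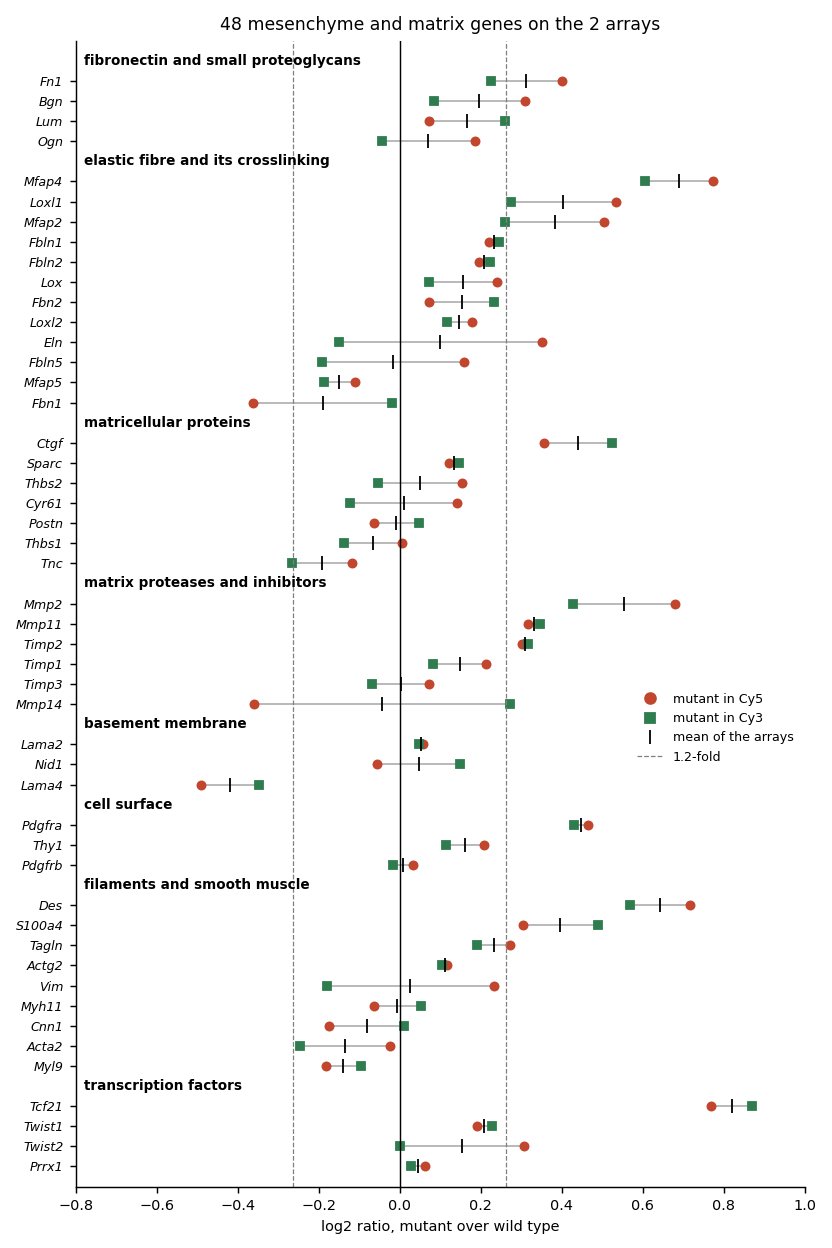
Log2 ratio of mutant over wild type (x axis) for each of the 48 genes, ordered by role, with the mutant in Cy5 (circles), the mutant in Cy3 (squares), their mean (vertical tick) and the 1.2-fold lines (dashed). Tcf21, Mfap4, Des and Mmp2 stand farthest to the right with both symbols beyond the line, Lama4 is the only gene with both symbols beyond the line on the left, and the symbols of Mmp14 lie on opposite sides of 0.

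**Figure D2:**
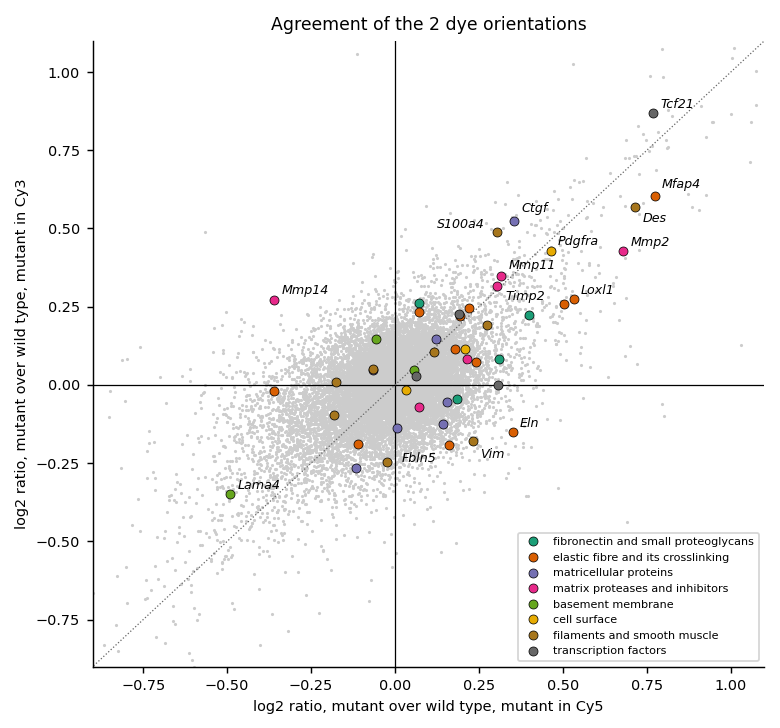
Log2 ratio with the mutant in Cy5 (x axis) against that with the mutant in Cy3 (y axis) for all detected genes (grey) and the 48 members (coloured by role), over the range of the members, so that genes beyond the axes are not drawn. The 10 genes past the 1.2-fold rule lie in the upper right near the dotted line of equal ratios, and Mmp14, Eln, Vim and Fbln5 lie where the arrays disagree in sign.

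The promoters of a few of these genes are shown because they belong to members past the 1.2-fold rule, and because motifs for factors active in mesenchyme can be looked up in them. RefSeq windows from 250 bases before to 50 bases after the start (GRCm38.p6) were matched for 30 of the 48 genes, as 35 windows. Each line gives the 250 bases before the start, 5′ to 3′ on the strand of the gene, with matches to the searched motifs in capitals. The windows are Tcf21 at chr10:22820144-22820393 (minus strand), Des at chr1:75360042-75360291 (plus), Pdgfra at chr5:75152001-75152250 (plus), Mmp11 at chr10:75932503-75932752 (minus) and Myl9 at chr2:156775214-156775463 (plus). Myl9 was not past the rule and is shown for its CArG box.
Tcf21: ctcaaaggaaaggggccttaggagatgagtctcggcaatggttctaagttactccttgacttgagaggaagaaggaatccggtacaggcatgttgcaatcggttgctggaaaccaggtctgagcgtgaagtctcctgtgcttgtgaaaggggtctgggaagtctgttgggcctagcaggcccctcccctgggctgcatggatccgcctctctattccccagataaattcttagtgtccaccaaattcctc
Des: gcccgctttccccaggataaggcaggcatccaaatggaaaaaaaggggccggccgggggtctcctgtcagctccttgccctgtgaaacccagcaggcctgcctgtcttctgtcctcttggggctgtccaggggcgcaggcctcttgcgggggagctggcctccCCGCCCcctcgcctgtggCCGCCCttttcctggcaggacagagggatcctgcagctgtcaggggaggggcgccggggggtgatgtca
Pdgfra: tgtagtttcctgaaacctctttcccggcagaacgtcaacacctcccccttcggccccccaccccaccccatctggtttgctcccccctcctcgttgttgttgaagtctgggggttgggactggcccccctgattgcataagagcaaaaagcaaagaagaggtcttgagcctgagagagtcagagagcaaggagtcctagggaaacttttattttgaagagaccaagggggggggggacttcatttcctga
Mmp11: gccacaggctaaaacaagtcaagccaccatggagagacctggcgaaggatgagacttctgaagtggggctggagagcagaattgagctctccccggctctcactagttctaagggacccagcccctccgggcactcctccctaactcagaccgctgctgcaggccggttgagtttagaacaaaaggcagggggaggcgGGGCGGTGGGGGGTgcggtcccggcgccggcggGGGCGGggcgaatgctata
Myl9: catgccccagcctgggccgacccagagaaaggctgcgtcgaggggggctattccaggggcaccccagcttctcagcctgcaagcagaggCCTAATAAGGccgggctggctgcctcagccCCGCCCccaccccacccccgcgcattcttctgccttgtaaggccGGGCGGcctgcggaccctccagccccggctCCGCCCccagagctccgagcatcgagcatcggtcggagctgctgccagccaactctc

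The motifs searched, on both strands, were the CArG box of serum response factor, GGAATG of TEAD factors, TGGGGGGT as the core of a Glis-family site, the TATA box TATAAA and the GC box GGGCGG. The CArG box was in 2 of the 35 windows, those of Lama2 and Myl9, and in 1.63% of all 32851 mouse windows of that length. The Myl9 match lay 161 to 152 bases before the start and did not overlap its GC boxes. GGAATG was in 7 of 35 windows (20.0%), against 14.7% of all. TGGGGGGT was in 1 of 35, that of Mmp11, against 1.53% of all. There it lay 46 to 39 bases before the start and directly abutted a GC box at 52 to 47, in the capitals of the Mmp11 line above. TATAAA was in 9 of 35 windows (25.7%), against 13.6%, and GGGCGG in 20 (57.1%), against 35.7%. The Des window held GC boxes at 87 to 82 and 69 to 64, and the Tcf21 and Pdgfra windows held none of the motifs. A match describes the letters of the window and is not a site.

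Of the 4 transcription factors, 1 passed the 1.2-fold rule and all had ratios above 0 on both arrays. Tcf21 is a basic helix-loop-helix factor of visceral mesenchyme and of fibroblast progenitors. Its probe (NM_011545, chromosome 10, 22798300 to 22798359 in the file's coordinates, whose build was not given in the sources used here) had normalised log2 signals of 8.27 and 8.36 in the mutant, while its wild-type signal was 7.5 on both arrays. Both mutant signals lay above that level, which the rule already requires of a gene that passes it. The ratios were 0.77 and 0.87, a mean of 0.82 (1.76-fold), the largest among the 48 genes. The normalisation pulls the ratios of dim probes toward 0, and in the ratios computed by the scanner software Tcf21 was at 0.98 and 1.16, a mean of 1.07 (2.09-fold). Twist1, which specifies mesenchyme of many organs, had ratios of 0.19 and 0.23. Twist2, its close relative in dermal and other fibroblasts, had 0.31 and 0.0013, with only the first past 1.2-fold. Prrx1, a homeobox factor of limb and stromal fibroblasts, had signals of 9.43 and 9.48 in the mutant and 9.36 and 9.45 in the wild type, and ratios of 0.06 and 0.03. The 3 other Prrx1 probes had means of 0.00, 0.11 and -0.02.

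Of the 3 cell-surface genes 1 passed the rule. Pdgfra, the receptor for platelet-derived growth factor that marks fibroblasts and mesenchymal progenitors, had signals of 9.30 and 9.43 in the mutant and 8.83 and 9.0 in the wild type. Its ratios of 0.46 and 0.43 gave a mean of 0.45 (1.36-fold). A dimmer probe of the gene, whose position lies at 73997818 to 73997877 on chromosome 5 where the first lies at 74032093 to 74032152, had a mean of 0.04. Pdgfrb, the related receptor of pericytes and smooth muscle, had signals of 9.84 and 9.85 in the mutant and 9.81 and 9.87 in the wild type. Its ratios were 0.03 and -0.02, and the difference between the receptors was not tested. Thy1, a glycolipid-anchored protein of fibroblasts and also of T cells and neurons, had 0.21 and 0.11, and its other probe a mean of 0.03.

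Of the 9 genes of filaments and smooth muscle, with S100a4 counted among them, 2 passed the rule, 4 were above 0 on both arrays and 2 below. The median was 0.03. Des encodes desmin, the intermediate filament of muscle and of quiescent stellate cells. Its signals were 8.20 and 8.01 in the mutant and 7.48 and 7.45 in the wild type, and its probe lies on chromosome 1 at 75657553 to 75657778. The ratios of 0.72 and 0.57 gave a mean of 0.64 (1.56-fold), and 0.86 (1.82-fold) in the software's ratios. S100a4, a calcium-binding protein of fibroblasts and also of leukocytes, had ratios of 0.30 and 0.49, a mean of 0.40 (1.32-fold). Its signals were 11.05 and 11.15 in the mutant and 10.75 and 10.66 in the wild type.

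None of the contractile genes of smooth muscle passed the 1.2-fold rule. Acta2, smooth muscle actin and the usual marker of activated stellate cells, had signals of 12.26 and 11.96 in the mutant and 12.28 and 12.21 in the wild type. Its ratios of -0.03 and -0.25 gave a mean of -0.14, and its other probes had means of 0.27 and -0.16. The signals of the genotypes overlapped across the arrays. The probe at 0.27 spans 33579613 to 33582867 of chromosome 19, across 3255 bases. Tagln, an actin-binding protein of smooth muscle, had signals of 13.15 and 13.4 in the mutant and 12.88 and 13.21 in the wild type. Its ratios were 0.27 and 0.19, and its other probe had a mean of -0.13. For both genes the direction therefore turned with the probe that was read. Actg2, the enteric smooth muscle actin, had 0.12 and 0.11. Cnn1 (calponin) had -0.17 and 0.01. Myh11, the smooth muscle myosin heavy chain, had -0.06 and 0.05. Myl9, its regulatory light chain, had -0.18 and -0.10, and was with Acta2 the other gene of the role below 0 on both arrays. Vim, the intermediate filament of all mesenchymal cells, had signals of 14.35 and 14.08 in the mutant and 14.12 and 14.26 in the wild type. Its ratios of 0.23 and -0.18 had opposite signs, with a mean of 0.03.

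Of the 12 genes of the elastic fibre and its crosslinking, 2 passed the rule, 8 were above 0 on both arrays and 2 below, and the median was 0.15. Mfap4, a microfibril-associated protein that binds elastin and fibrillin, had signals of 11.20 and 11.06 in the mutant and 10.43 and 10.45 in the wild type. Its ratios were 0.77 and 0.61, a mean of 0.69 (1.61-fold), from a probe on chromosome 11 at 61214237 to 61214296. Loxl1, a lysyl oxidase that crosslinks elastin, had signals of 10.80 and 10.73 in the mutant and 10.27 and 10.46 in the wild type. Its ratios were 0.53 and 0.27, a mean of 0.40 (1.32-fold). In both genes each mutant signal lay above each wild-type signal, which the rule already requires within an array. Mfap2, another microfibril protein, fell just short of the rule with 0.50 and 0.26 and a mean of 0.38, and its other probe had a mean of 0.18.

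The fibulins, adaptor proteins of the elastic fibre, gave 0.22 and 0.24 for Fbln1 and 0.19 and 0.22 for Fbln2. The other Fbln1 probe had a mean of 0.35. Fbln5, which tethers elastic fibres to cells, had signals of 11.33 and 11.04 in the mutant and 11.17 and 11.23 in the wild type. Its ratios of 0.16 and -0.19 changed sign with the dye, and its other probe had a mean of 0.03. Eln, elastin itself, did the same, with signals of 11.20 and 10.85 in the mutant and 10.85 and 11.01 in the wild type, and ratios of 0.35 and -0.15. The fibrillins, which form the microfibril scaffold, differed from each other in sign. Fbn1 had ratios of -0.36 and -0.02 (mean -0.19, other probe -0.11), and Fbn2 had 0.07 and 0.23. Mfap5, a further microfibril protein, had -0.11 and -0.19. The oxidases Lox and Loxl2 had 0.24 and 0.07 and 0.18 and 0.12. None of these passed the 1.2-fold rule.

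Of the 6 matrix proteases and inhibitors 3 passed the rule upward, against 1.7% of all detected genes, and the median was 0.23. Mmp2, the gelatinase made mainly by fibroblasts, had signals of 10.29 and 10.38 in the mutant and 9.61 and 9.95 in the wild type. Its ratios were 0.68 and 0.43, a mean of 0.55 (1.47-fold), from a probe on chromosome 8 at 92140060 to 92140119. Mmp11, a stromal protease, had signals of 8.28 and 8.26 in the mutant and 7.96 and 7.91 in the wild type. Its ratios were 0.32 and 0.35 (mean 0.33, 1.26-fold). Timp2, an inhibitor that also takes part in the activation of Mmp2, had signals of 11.81 and 11.68 in the mutant and 11.51 and 11.37 in the wild type. Its ratios were 0.30 and 0.32 (mean 0.31, 1.24-fold). For all 3 genes the mutant signals lay above the wild-type signals on both arrays, which the rule already requires of a gene that passes it.

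Mmp14 is the membrane protease that activates Mmp2 together with Timp2, and it had the widest gap between arrays among the 48 genes. Its signals were 12.01 and 12.11 in the mutant and 12.37 and 11.83 in the wild type, and its ratios -0.36 and 0.27. Its other, dimmer probe had 0.47 and 0.23, a mean of 0.35. Only the brighter probe therefore changed sign with the dye. Of the other inhibitors, Timp1 had 0.21 and 0.08, with other probes at means of 0.21 and 0.16, and Timp3, which binds to the matrix, had 0.07 and -0.07.

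Of the 7 matricellular genes 1 passed the rule, 4 changed sign with the dye and the median was 0.01. Ctgf, a secreted adhesive protein of activated fibroblasts, had signals of 9.87 and 9.94 in the mutant and 9.51 and 9.41 in the wild type. Its ratios were 0.36 and 0.52, a mean of 0.44 (1.36-fold). Cyr61, a protein of the same family, had 0.14 and -0.12. Of this pair Ctgf alone passed the rule. Sparc, a collagen-binding glycoprotein, had signals of 14.00 and 13.83 in the mutant and 13.88 and 13.69 in the wild type. Its ratios were 0.12 and 0.15, and its other probe had a mean of -0.05. Postn (periostin), a ligand of integrins in the stroma, had -0.06 and 0.05. Both thrombospondins, which bind cells and other matrix proteins, changed sign with the dye. Thbs1 had signals of 8.56 and 8.36 in the mutant and 8.56 and 8.5 in the wild type. Its ratios were 0.01 and -0.14, and its other probes had means of 0.06 and 0.16. Thbs2 had 0.15 and -0.05. Tnc, the anti-adhesive glycoprotein tenascin C, had signals of 6.93 and 6.85 in the mutant and 7.05 and 7.12 in the wild type. Both mutant signals lay below both wild-type signals, and the ratios were -0.12 and -0.27. Their mean was -0.19, while the other Tnc probe had a mean of 0.12.

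Fibronectin and the 3 small proteoglycans had a median of 0.18, with 3 of the 4 above 0 on both arrays and none past the rule. Fn1, the fibronectin that links cells to the matrix through integrins, had signals of 9.0 and 8.83 in the mutant and 8.60 and 8.60 in the wild type. Its ratios were 0.40 and 0.22, a mean of 0.31 (1.24-fold), short of the rule where the mutant was in Cy3. The 3 other Fn1 probes had means of 0.05, -0.18 and 0.08, so that the value of the brightest probe was not shared by the rest. Biglycan (Bgn) had 0.31 and 0.08. Lumican (Lum) had 0.07 and 0.26. Osteoglycin (Ogn) had 0.18 and -0.04. All 3 bind collagen fibrils and are made by fibroblasts.

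The 3 basement membrane genes held the 1 member that was lower. Lama4, the laminin chain of vessel basement membranes, had signals of 9.42 and 9.39 in the mutant and 9.91 and 9.74 in the wild type. Its ratios were -0.49 and -0.35, a mean of -0.42 (1.34-fold lower), from a probe on chromosome 10 at 39175385 to 39175444. Both wild-type signals lay above both mutant signals, which the rule already requires within an array. The other Lama4 probes had means of -0.35 and -0.14. Lama2, the laminin chain of muscle and nerve basement membranes, had 0.06 and 0.05, with its other probe at 0.02. Nid1, a nidogen that links laminin to collagen, had -0.06 and 0.15.

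Of the 48 genes 17 had several probes, and in 9 of these the probes had means of opposite sign: Fn1, Acta2, Tagln, Fbln5, Sparc, Mmp14, Tnc, Prrx1 and Thbs1. Of the 10 genes past the 1.2-fold rule only Pdgfra had several probes, and it lost the rule when the median over them was read. The others had a single probe each, so that this reading could not change them. Fbln1 then passed the rule. Over all 73 probes, 53 had a mean above 0. Several of these probes can read the same gene, and the share over all probes of the array was not counted.

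**Figure D3:**
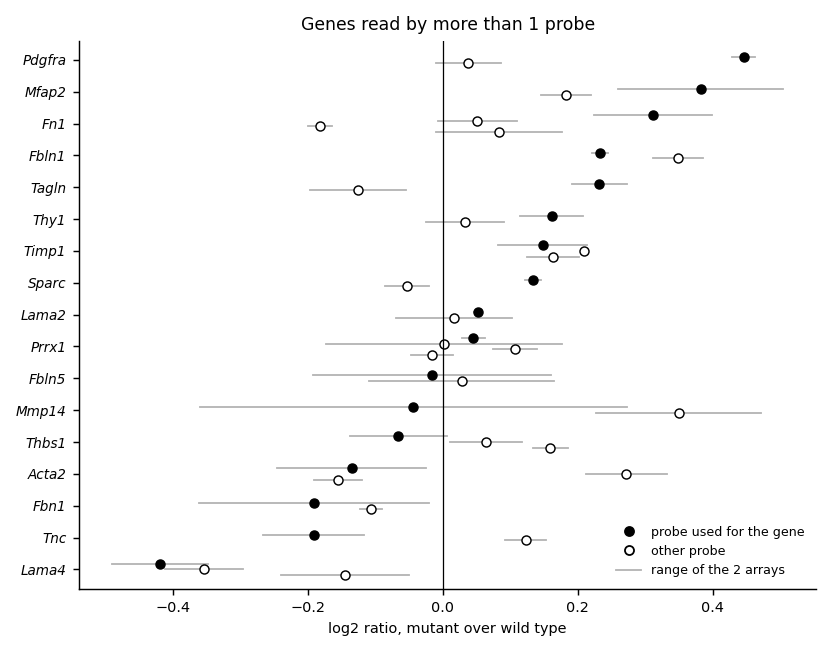
Mean log2 ratio of mutant over wild type (x axis) of each detected probe of the members with more than 1 probe, with the probe that was read filled, the other probes open, and a line from one array to the other. The probes of Acta2, Fn1, Tagln and Mmp14 lie on both sides of 0, and the 3 probes of Lama4 all lie below 0.

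The members were then set beside other genes of the same roles, none of which is among the 48 apart from Des, which also stands in the stellate list. No gene of these lists passed the 2-fold rule. Of 18 further proteoglycan genes 1 was higher by the 1.2-fold rule and none lower (median 0.06), and Sdc1, a syndecan of epithelia, had the largest mean at 0.55, with Dcn (decorin) at 0.29 and Prelp at 0.22 (other probe 0.11). Of 24 further genes of the elastic fibre and of crosslinking 2 were higher and none lower (median 0.03), with Ltbp3 at 0.48 (other probe 0.08), Tgfbi at 0.43 and Emilin1 at 0.31. Of 21 further proteases and inhibitors 2 were higher and none lower (median 0.03), led by the inhibitor Serpine2 at 0.39, Adamts1 at 0.36 (other probe 0.26) and Mmp23 at 0.21. These medians lay below that of the members, while that of the mesothelial genes, at 0.17, lay above it. Of 18 further matricellular genes 1 was higher (median 0.05), with the adhesion protein Vtn at 0.74, Spp1 at 0.30 and Dpt at -0.26.

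The basement membrane list (16 genes, median 0.08) held none past the rule, with Agrn at -0.21 (other probe 0.03) and Smoc2 at 0.19 (other probe 0.10). Of 17 matrix receptors 1 was lower (median 0.05), Itgb3 at -0.37, followed by Ddr1 at -0.26 and Itgb6 at 0.22. Of 2 other Itgb6 probes 1 had the opposite sign, at -0.14. Of 21 further smooth muscle genes 1 was higher (median 0.00), with the small heat shock gene Hspb1 at 0.48, Srf at -0.22 and Smoc2 at 0.19. Stellate cell and pericyte genes numbered 20, 2 of them higher (median 0.04), with Des at 0.64, the growth factor Pdgfc at 0.47 (other probe 0.53) and Pdgfd at -0.21. Among 31 further transcription factors of mesenchyme none was higher and 1 was lower (median 0.01), namely Tlx1 at -0.38, beside Osr2 at 0.31 and Snai1 at 0.23. Of 11 mesothelial genes 1 was higher and 1 lower (median 0.17), with Slpi at 0.36 (other probe 0.04), Cldn15 at -0.33 and Krt19 at 0.28.

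**Figure D4:**
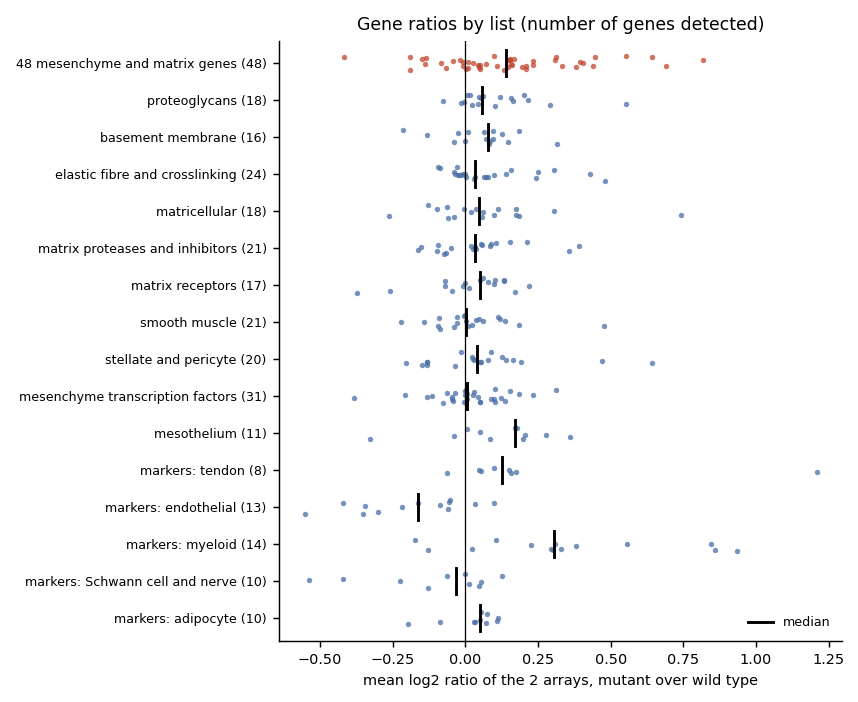
Mean log2 ratio of mutant over wild type (x axis) of each detected gene in the members' list, the further lists of the same roles and the markers of tendon, endothelial, myeloid, nerve and fat cells, with a tick at each median. The lists of skeletal muscle, acinar, islet and duct markers are not drawn. The median of the members is 0.14, that of the myeloid markers 0.31 and that of the endothelial markers -0.16.

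Markers of other cells that a dissected pancreas can hold also differed between the pools. Of 26 detected skeletal muscle genes 12 passed the 2-fold rule upward and none was lower by either rule, with a median of 0.75 and with Myl1 at 4.46, Tnnc2 at 3.60 and Mylpf at 3.45. Their summed signal, with background subtracted and before any correction for the dyes, was 29664 to 33271 in the mutant and 11537 to 13915 in the wild type. Desmin is a muscle gene as well. The muscle regulators Myog and Myod1 were at 0.01 and -0.21, and Pvalb was not well above background. Of 8 tendon genes 1, Scx, passed the 2-fold rule at 1.21 (2.31-fold), followed by Comp at 0.17 and Chad at 0.16, with Tnmd at 0.05, Mkx at -0.06, a list median of 0.12 and sums of 2838 to 2839 in the mutant and 2371 to 2638 in the wild type. Of 14 myeloid genes 6 were higher by the 1.2-fold rule (median 0.31), led by Ctss at 0.93, Lyz2 at 0.86 (other probe 0.48) and Lyz1 at 0.85, and their sums were 28820 to 34917 and 22218 to 25835. On both arrays 12 of the 14 were above 0 and 2 below, C1qa at -0.17 and Mrc1 at -0.13. The part of these cells in the members' ratios was not tested. Des, S100a4 and Thy1 are genes that muscle or blood cells are also known to express. Without these and Tcf21, 7 of 44 members were higher by the 1.2-fold rule, 1 was lower and the median was 0.11. All detected genes had 1.7% higher and 2.57% lower. The genes left out were chosen after seeing the data and are not all that such cells express. Lama2, a laminin chain of muscle, stayed in. The count therefore does not measure the part of those cells.

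Beside Lama4, of 13 endothelial genes 4 were lower by the 1.2-fold rule and none higher (median -0.16), namely Flt1 at -0.55 (other probe -0.55), Egfl7 at -0.42, Kdr at -0.35 and Cdh5 at -0.35. Of the 13, 8 were below 0 on both arrays, 3 changed sign with the dye and 2 were above 0, Sox17 at 0.10 and Ets1 at 0.03. The summed signal of the endothelial genes was 7713 to 8879 in the mutant and 10456 to 13018 in the wild type, and their part in the Lama4 ratio was not tested. No sum was corrected for the dyes. The median raw signal of an array was 208.2 in the mutant against 265.0 in the wild type with the mutant in Cy5. It was 209.7 against 207.0 with the mutant in Cy3. Of 10 genes of Schwann cells and nerve 2 were lower (median -0.03), with Elavl4 at -0.54 (other probe -0.15), S100b at -0.42 and Prph at -0.22, and sums of 5284 to 5452 against 5864 to 7030. None of 10 adipocyte genes passed the rule (median 0.05), with Cidea at -0.20, Cidec at 0.11 and Lpl at 0.11 (other probe 0.15). The summed signal of the 48 members, before any correction for the dyes, was 124537 in the mutant against 128716 in the wild type with the mutant in Cy5, and 106264 against 117268 with it in Cy3. This sum, which the brightest members dominate, was lower in the mutant on both arrays, while the median of the normalised ratios was above 0. In RNA from whole tissue, fewer cells of a type and less RNA per cell cannot be told apart.

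Of the epithelial lists, that of the islet held the genes with the lowest ratios. Of 12 islet genes 8 were lower by the 2-fold rule (median -1.47), with Ins1 at -4.16, Ins2 at -3.46 (other probe -3.53) and Ppy at -2.15. Of 16 acinar genes 8 were saturated in both genotypes, and the other 8 had a median of -0.14, with Gp2 at 1.93, Ctrl at -1.11 and Rbpjl at -0.85. Of 13 duct genes 1 was higher and 1 lower by the 1.2-fold rule (median 0.09), with Onecut1 at 0.89, Aqp1 at -0.38 and Spp1 at 0.30. The Glis3 probe (NM_175459) had ratios of -0.02 and 0.01. Its place relative to the mutated part was not given in the sources used here, so that it does not check the genotype. Between 94.0% and 96.8% of gene spots were well above background in a channel, and 26 to 48 were saturated.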

How the data were processed

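RNA of 1 pool of 2 pups per genotype was amplified, labelled and hybridised to a pair of dye-swapped arrays, per the labels. Per the file headers, the deposited scanner output gives mean spot and local background intensity in each channel, processed intensity, a log10 ratio of Cy5 over Cy3 and the software's p-value for it, which is not reported because it covers 1 array. The labels name Feature Extraction 7.5 with default settings and Rosetta Resolver 6.0, and the file headers name 8.5.1.1. The deposited series table (41185 probes) holds the authors' processed log2 ratio of mutant over wild type: it lay within 0.002 of the software's ratio, turned that way, for 99.99% and 99.98% of probes, with a median of 0.

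Intensities were background-corrected with normexp (offset 50, limma 3.58.1, R 4.3.3) and then each array by loess, giving control spots a weight of 0 and leaving outlier spots out. The offset pulls ratios of dim probes toward 0. The ratios of both arrays, expressed as mutant over wild type, were averaged as 1 replicate, and the steps were tested on simulated data. Ratios from single probes carry no SD between animals.

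Of 41174 probes, 22072 were named by RefSeq accession, 142 by another accession, 657 by symbol and 620 by older symbol, and 17683 were not named. A gene was detected when its probe was well above background in 1 genotype on both arrays. Full values are given for members past the 1.2-fold rule, members whose sign changed with the dye by at least 0.3, members with probes of opposite sign, and Pdgfra, Pdgfrb, Vim, Acta2, Des, Tagln, Fn1 and Sparc, and in each further list the 3 genes with the largest mean of the same sign on both arrays, of which 1 is not reported here. The members and lists were chosen with earlier results of these data known. Alternatives were a normexp offset of 0, the software's ratios, the series table, median centring, Aquantile, either array alone, the median over probes and other filters on dim probes.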

Additional observations from a re-analysis of the deposited data

How the results depend on the processing

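No paired analysis was possible because each genotype was 1 pool of RNA. The count of members higher by the 2-fold rule was 0 and became 1, Tcf21, with a normexp offset of 0, with the software's ratios and with the deposited series table. In these settings 0.296%, 0.302% and 0.302% of all detected genes were higher by that rule. The count higher by the 1.2-fold rule was 10 and became 16 with the Cy5-labelled mutant array alone, against 4.13% of all detected genes there. The count lower was 1 and became 3 on that array, against 7.54%. It became 2 with the Cy3-labelled mutant array alone, against 4.34%. With either array alone, 1 array has to pass in place of both. Under the other settings on all 48 members 8 to 12 were higher, against 1.27% to 2.91% of all detected genes. Except as just given 1 was lower, against 2.06% to 3.89%. Without Des, Tcf21, S100a4 and Thy1 7 of 44 were higher and 1 lower. Median centring without loess gave 8, without Timp2 and Loxl1, and the software's ratios gave 12, with Fn1 and Twist1 added. Median centring moved the split of signs to 21 members above 0 on both arrays, 8 below and 19 of changed sign, against 24.5%, 36.0% and 39.6% of all detected genes, and the shares of all detected genes past the 1.2-fold rule to 1.27% higher and 3.89% lower. It turned the sign of the mean for 7 members (Pdgfrb, Vim, Timp3, Prrx1, Thbs2, Cyr61 and Nid1), all within 0.051 of 0, and gave a median of 0.08. The median over probes gave a members' median of 0.10. Of the single-member values under all settings, 417 moved by at most 1 technical SD, 63 moved by more and 0 of the called ones reversed. Many of these values could not move. Aquantile leaves ratios unchanged by construction, the filters on dim probes removed no member, and the median over probes is fixed for genes with a single probe. The series table repeats the software's ratios, and a gene called on both arrays cannot reverse on either alone. The count of values that moved little therefore overstates how stable they are. Counts of signs on both arrays cannot be given for 1 array. The alternative without Des, Tcf21, S100a4 and Thy1 was chosen after seeing the data. With 1 pool per genotype, no setting measures the spread between animals.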

Other observations

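Besides the 73 named probes, 12 probes of cDNA clones without a gene symbol are described in the files as products of 10 of the 48 genes, and 9 of them were well above background. The means of the 12 lay between -0.10 and 0.11, with a median of 0.01, and 0 passed the 1.2-fold rule. The clone described as connective tissue growth factor had ratios of 0.21 and -0.03, where the Ctgf probe had 0.36 and 0.52. The clone described as laminin alpha 4 had -0.03 and 0.02, where the Lama4 probe had -0.49 and -0.35. Biglycan's clone had -0.06 and 0.04, and vimentin's, which was not well above background, -0.04 and 0.11. Which transcripts or strands these clones represent was not tested.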
